A study of Mus musculus with 20 samples.

Results

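The transcripts described here come from the immunoglobulin loci, which encode the heavy chain and the kappa and lambda light chains of antibodies. Members were the probe sets whose annotation names a variable, joining or constant gene of these loci. There were 51 of them among the 44200 probe sets measured, and they name 26 of the 19045 genes in the annotation. The 26 genes are 17 kappa variable genes, Igkj1, Igkc, the heavy chain constant genes Ighm, Ighg3 and Igha, the heavy chain variable genes Ighv14-2 and Ighv1-72, and the lambda genes Iglv1 and Iglc1. A further 5 probe sets carry only a bare or older kappa symbol and fell outside the rule. By class, 18 members name only heavy constant genes, 5 name a heavy variable gene, 3 name Igkc together with kappa variable and joining genes, 21 name only kappa variable genes and 4 are lambda. A single gene is named by 38 members and several genes by 13. Of the 51, 17 have the suffix _x_at, which the array maker gives to sets with probes that match other sequences, and 4 have _s_at, for probes shared between transcripts.

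Total RNA of mouse pre-B cells was measured on 20 Affymetrix Mouse 430v2 arrays, in 7 groups. All lines had been transformed with the v-abl oncogene and kept for 48 h with 3 uM STI571, an inhibitor of the Abl kinase, before RNA was taken. The 5 groups of lines were wild type (3 lines), RAG-2-deficient (3), Artemis-deficient (3), Artemis- and ATM-deficient (2 lines, each on 2 technical arrays) and Artemis-deficient expressing a dominant negative IkB (3 samples, IkB-DN below). Bone marrow pre-B cells came from Artemis-deficient mice (2 samples) and RAG-1-deficient mice (2), all carrying an IgH transgene, and received no drug. The titles of the RAG-2-deficient lines contain "Bcl", which the sources used here do not explain and no other group's titles contain. The title of wild type line 3 contains "ATM" although its source is given as wild type, so results on the wild type group are also given without it. The titles of wild type lines 1 and 2 share a stem, as do those of the 3 RAG-2-deficient lines. No label says whether samples with a shared stem are separate lines, and each is counted as 1 here. The 3 IkB-DN samples correlated at 0.976 to 0.983 over probe sets, against 0.982 and 0.984 between technical arrays and 0.902 to 0.948 between lines of the wild type, RAG-2-deficient and Artemis-deficient groups. Their titles each carry a different number, and the series calls its samples biological replicates. No label says whether they are separate lines, so the main IkB-DN calls are also given with the 3 averaged to 1 sample.

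An antibody chain gene is assembled in developing B cells when the RAG proteins cut DNA beside variable, diversity and joining segments and the ends are joined. Artemis opens the hairpin ends that RAG leaves on coding segments, so these ends stay unjoined in Artemis-deficient cells, while RAG-deficient cells make no such cuts and keep germline loci. Pre-B cells usually hold an assembled heavy chain and are beginning on kappa, whose germline J and C segments are transcribed before assembly. ATM is a kinase that responds to DNA breaks. IkB holds the transcription factor NF-kB in the cytoplasm, and NF-kB was named for a site in the kappa intronic enhancer. The study set these genotypes against RAG-deficient controls to find genes that respond to RAG-made breaks.

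Signals are given on the linear scale of the arrays, and changes as log2 differences with their standard error (SE). Array medians lay between 26.8 and 27.7 for lines and between 46.9 and 47.8 for marrow. The 2 sets appear scaled apart, so levels were compared only within each, and only within a probe set. A probe set was tested when at least 2 samples reached the median of their own array, and called at an adjusted p below 0.05 over all probe sets tested (limma, Benjamini-Hochberg). This kept 21 members in the lines and 14 in the marrow, 12 of them in both, and 28 members passed in neither. In the lines, 25 members never reached the median on any sample. The Cd79a, Cd79b, Vpreb1, Igll1, Ebf1, Pax5 and Rag1 signals, markers of pre-B cells, were above the array median on all 20 arrays. No T cell, NK cell, erythroid or dendritic marker reached the median on all arrays of any group of lines. Rag2 signal was 19.8, 255 and 327 in the RAG-2-deficient lines against 173 to 305 in the wild type lines, and Rag1 was 5356 and 6677 in the RAG-1-deficient marrow against 1796 and 1232 in the Artemis-deficient marrow, so neither gene's probe set was low throughout the group labelled deficient for it, and Rag1 was higher there. No source used here says whether those probes lie outside the deleted parts. Each marker or listed gene was read at 1 probe set, that of highest mean signal.

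Kappa constant region signal was far above the array median in RAG-2-deficient lines, which cannot assemble the locus, and was lowest in the IkB-DN samples and in Artemis- and ATM-deficient line 2. The 3 probe sets naming Igkc also name Igkj1, Igkv6-23, Igkv4-53 and Igkv8-30. For 1452417_x_at the signal was 2876, 1616 and 1479 in the RAG-2-deficient lines and 2597, 2491 and 1499 in the wild type lines. It was 1384, 2031 and 2422 in the Artemis-deficient lines. It was 472, 356 and 388 in the IkB-DN samples. The first 3 groups overlapped throughout, and every IkB-DN value lay below every value of those 9 lines. The difference from RAG-2-deficient lines was -0.00 ± 0.50 (SE) in Artemis-deficient lines (adjusted p = 0.999) and 0.16 ± 0.50 in wild type lines (adjusted p = 0.939). The 95% intervals of these differences ran from -1.10 to 1.09 and from -0.93 to 1.26, so the data do not show that the groups are alike.

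The 2 Artemis- and ATM-deficient lines lay far apart at the same probe set. Line 1 gave 2087 and 1663 on its 2 arrays, within the range of the wild type lines. Line 2 gave 236 and 442, near the IkB-DN samples. Igkv8-30 (1452463_x_at), a kappa variable gene that the Igkc sets also name, was 1650 and 1350 in line 1 and 106 and 154 in line 2. The other 2 Igkc sets gave the same split, at 2499 to 3416 in line 1 and 209 to 542 in line 2. The group's mean described neither line, and no member was called against the RAG-2-deficient lines (0 of 19 tested, with 2 at an unadjusted p below 0.05; 0.693% of all probe sets were called in either direction). Nor was any called between Artemis-deficient and Artemis- and ATM-deficient lines (0 of 19, 2 at an unadjusted p below 0.05; 0.286% of all). Line 2 was singled out after its low kappa values were seen, so fits with 1 line of the group are given as changes only. At 1452417_x_at the change from RAG-2-deficient lines was -2.53 with line 2 alone and -0.03 with line 1 alone. Artemis-deficient lines were 2.53 higher than line 2 and 0.02 higher than line 1.

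**Figure D1:**
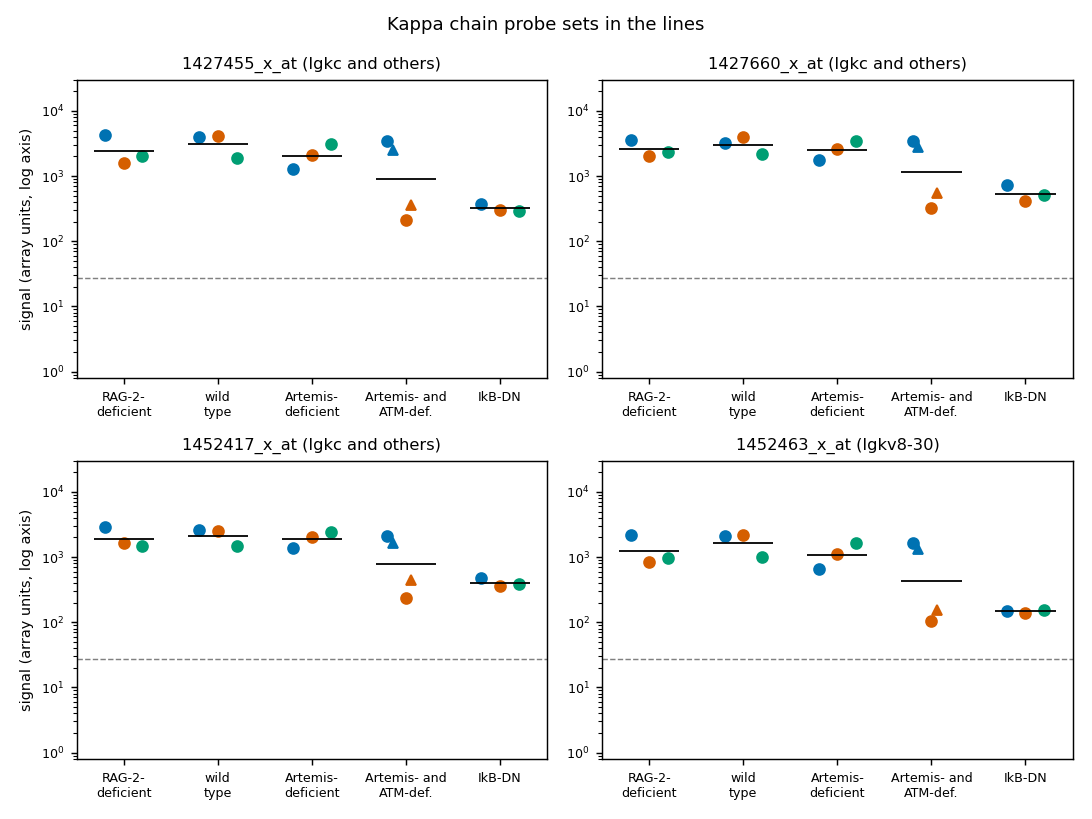
Signal (log axis, array units) of the 3 probe sets naming Igkc and of Igkv8-30 in the 5 groups of lines. Each point is 1 array, coloured by replicate, triangles are second technical arrays, black lines are geometric means and the dashed line is the mean of the array medians. The IkB-DN arrays and both arrays of Artemis- and ATM-deficient line 2 lie below all others in each panel.

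Igkc fell in the IkB-DN samples against the RAG-2-deficient lines, together with Ighm and kappa variable genes. In that comparison 7 of 19 members tested were called lower and none higher, against 4.92% of all probe sets lower and 9.97% in either direction. The median change of the 19 was -0.86, beside -0.02 over all probe sets. At 1452417_x_at the log2 level was 8.67 ± 0.20 (SD, n = 3) in IkB-DN samples and 10.90 ± 0.52 (n = 3) in RAG-2-deficient lines, a change of -2.22 ± 0.50 (adjusted p = 0.0171). The change was -2.88 ± 0.69 at 1427455_x_at (adjusted p = 0.0216) and -2.25 ± 0.56 at 1427660_x_at (adjusted p = 0.0268). Igkv8-30 went from 2212, 839 and 978 in RAG-2-deficient lines to 151, 138 and 154, a change of -3.00 ± 0.70 (adjusted p = 0.0203). All 4 probe sets name Igkv8-30, so they are not 4 independent measurements.

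Set against Artemis-deficient lines, which share the Artemis defect with the IkB-DN samples, only 1452417_x_at among members was called. It was 2.22 ± 0.50 higher in the Artemis-deficient lines than in the IkB-DN samples (adjusted p = 0.0452). That is 1 of 19 members called higher, against 1.02% of all probe sets higher and 2.06% in either direction. The other 2 Igkc sets and Igkv8-30 had differences of 2.21 to 2.81 and missed the threshold, with adjusted p of 0.0616 to 0.0694. In none of the 4, which all name Igkv8-30, did the groups overlap. Here and below, overlap between 2 groups of lines was not counted over all probe sets, so its absence is a description only. A fit on these groups alone called 7 members. The shares above belong to the fit of all line groups, so no background stands beside this count. The 2 IkB-DN comparisons share the IkB-DN samples and are not independent of each other.

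The IkB-DN calls leaned on the 3 samples counting as separate. Averaged to 1 sample, none of the 7 was called against RAG-2-deficient lines (adjusted p = 0.139 to 0.362), while all probe sets called dropped to 24. Against Artemis-deficient lines none was called either (adjusted p = 0.774 at 1452417_x_at). With any IkB-DN sample left out, 2 or 3 members were called against RAG-2-deficient lines, and 2 were without RAG-2-deficient line 1. Leaving out any of the 6 samples ended the call of 1452417_x_at against Artemis-deficient lines, and without Artemis-deficient line 3 the Ighm set 1427351_s_at was called in its place. Beside these falls, 4 of 7 myeloid markers (Lyz2, Elane, Itgam, Csf1r) were above the array median on all IkB-DN arrays. In RAG-2-deficient lines 1 of 7 was, with summed signals of 104 to 167 against 637 to 770 in IkB-DN samples. In the other 3 groups of lines 2 of 7 were, Itgam and Csf1r. Their sums were 126 to 362 in wild type, 137 to 353 in Artemis-deficient and 222 to 1164.5 in Artemis- and ATM-deficient lines. Itgam was at 570 and 1069 in Artemis- and ATM-deficient line 1. The part of myeloid markers in the result was not tested.

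Igkv6-20 was high in wild type and RAG-2-deficient lines and low in Artemis-deficient and IkB-DN ones, another order of groups than that of Igkc. This probe set (1451962_at) names a single variable gene. Its signal was 91.3, 119 and 118 in RAG-2-deficient lines and 112, 117 and 263 in wild type lines. In Artemis-deficient lines it was 25.2, 17.7 and 7.45, all below the array median and below every RAG-2-deficient and wild type value. The IkB-DN samples, also Artemis-deficient, had 2.17, 0.0172 and 6.38. Artemis- and ATM-deficient line 1 stood with the first groups at 173 and 157, and line 2 with the Artemis-deficient lines at 21.7 and 30.6. From high to low, levels ran through wild type and RAG-2-deficient lines, which overlapped, then Artemis-deficient lines, then IkB-DN samples. The last 2 groups did not overlap, but their difference was not called.

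The change at Igkv6-20 from RAG-2-deficient lines to IkB-DN samples was -3.76 ± 0.55 (adjusted p = 0.00235), and that from wild type to Artemis-deficient lines was -2.87 ± 0.55 (adjusted p = 0.0447). Against RAG-2-deficient lines the Artemis-deficient change of -2.41 ± 0.55 missed the threshold (adjusted p = 0.0605) and passed in a fit of these groups alone (adjusted p = 0.0432). No member was called in that comparison of unjoined breaks with no breaks (0 of 21, 1 at an unadjusted p below 0.05, against 1.15% of all probe sets). Igkv6-20 was called in all 6 fits that left out a sample of the IkB-DN comparison. It lost its call against wild type in each of the 6 such fits there, with adjusted p of 0.055 to 0.103. The Artemis-deficient and IkB-DN signals are low on the array, so a fold depends on the pseudocount: the IkB-DN change was -5.25 with a pseudocount of 1 and -2.19 with the median signal as pseudocount, called with both.

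The wild type lines, which can join RAG breaks, were above all other lines at some kappa variable probe sets. Igkv6-14 (1427860_at) was at 50.5, 50.5 and 27.1 in wild type lines and between 0.381 and 8.9 on the 13 arrays of other lines. The probe set 1451965_at, which names Igkv6-14, Igkv6-23 and Igkv8-19, gave 58.6, 101 and 42.9 in wild type lines and 2.65 to 15.3 elsewhere. Igkv9-120 (1460423_x_at) gave 32.8, 44.3 and 12.4 against 1.73 to 9.35 elsewhere. In all 3 the wild type lines overlapped with no other line. The other Igkv9-120 probe sets did not show this. Wild type lines had 0.42, 5.05 and 0.725 at 1427750_at, where other lines reached 10.3, and empty, 5.91 and 4.54 at 1452536_s_at, where others reached 11.9. At 1427860_at, 1451965_at and 1460423_x_at, wild type line 3 was the lowest of its group.

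Against RAG-2-deficient lines, 2 of 21 members tested were called higher in wild type and none lower, where 0.419% of all probe sets were called higher and 0.824% in either direction. They were 1451965_at, by 2.35 ± 0.39 (adjusted p = 0.0202), and Igkv6-14, by 2.02 ± 0.35 (adjusted p = 0.0248). Both sets name Igkv6-14, so here and below they are not independent measurements. Igkv9-120 had 1.49 ± 0.42 (adjusted p = 0.154). Without wild type line 3, 3 members were called, Iglv1 (1430523_s_at) being the addition, and without line 2 that set and 1451965_at were. Without wild type line 1 or RAG-2-deficient line 3 none was, and without RAG-2-deficient line 1 only 1451965_at was. In the other comparison of wild type, Artemis-deficient lines were called lower at 3 of 21 members (0.193% of all probe sets lower, 0.505% in either direction). They were Igkv6-14, with a change of -2.35 ± 0.35 (adjusted p = 0.0167), 1451965_at, with -2.19 ± 0.39 (adjusted p = 0.0337), and Igkv6-20 as above. Without wild type line 3 there were 4 calls, without wild type line 1 none, and without wild type line 2 or any Artemis-deficient line only Igkv6-14. When each fit held the compared groups alone, no member was called in either comparison. Igkv6-14, 1451965_at and Igkv9-120 were tested only because wild type lines reached the median, so the count of calls among tested members carries that choice.

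With no filter on level, 36 members had at least 2 values in each group of lines. All 3 wild type lines lay above all 11 other lines at 6 of the 36, against 0.851% of all 33375 probe sets with such values, and below them at none, against 0.833%. Besides the 3 above these were Igkv19-93 (1427856_a_at, 7.01 to 19.1 in wild type lines), Igkv4-68 (1427857_x_at, 20.1 to 37.6) and 1426200_at, which names Igkv4-55 and Igkv4-68 (10.4 to 27.9). All 6 name kappa variable genes only. The genes they name run along the kappa locus from Igkv6-14, nearest the constant region of the 17, to Igkv9-120, the last but for Igkv1-135, in the order of the RefSeq gene table. Igkv5-39 (1451948_at) was 21.9, 22.8 and 11.6 in wild type lines and at most 2.67 or empty on other arrays. Igkv15-103 (1427837_at) was 14.3, 16.9 and 8.45 against at most 6.1 or empty. These low-level genes were picked after their values were seen, and most lie near or under the array median.

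**Figure D2:**
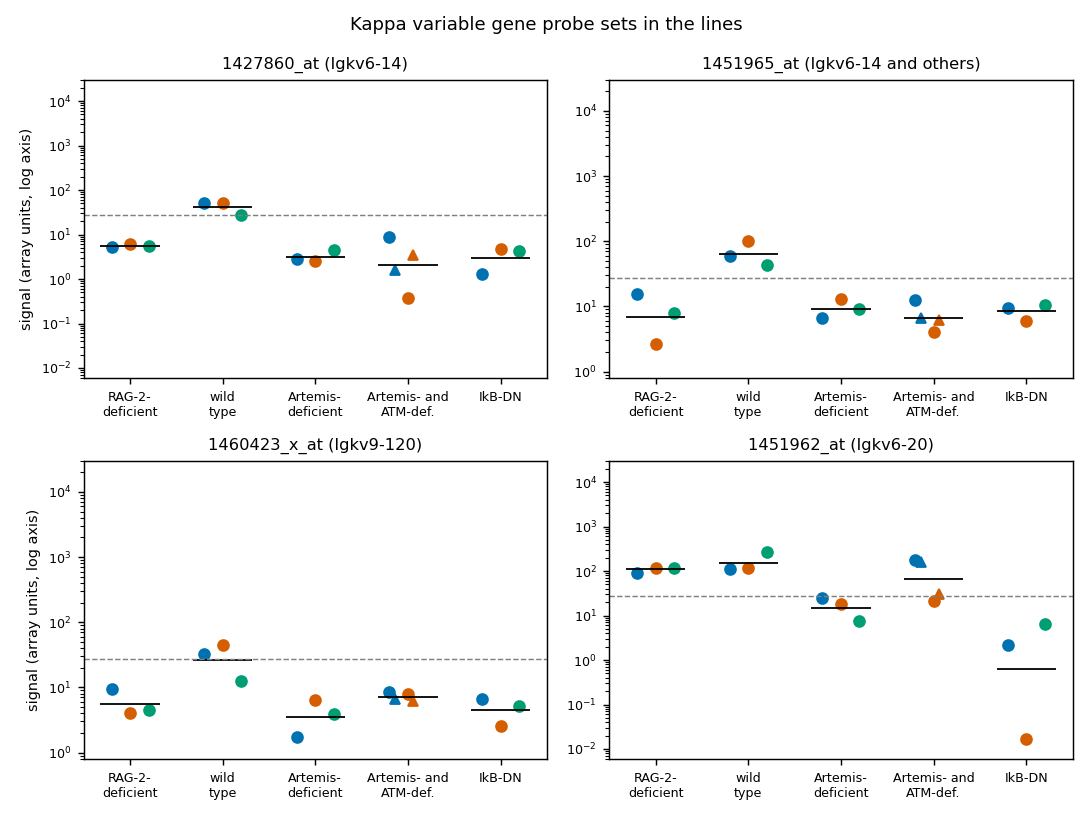
Signal (log axis, array units) of Igkv6-14, of the probe set naming Igkv6-14, Igkv6-23 and Igkv8-19, of Igkv9-120 and of Igkv6-20 in the 5 groups of lines, drawn as points per array with geometric means (black) and the mean array median (dashed). The wild type lines lie above all other lines in the first 3 panels, whereas Igkv6-20 is as high in RAG-2-deficient lines and low in Artemis-deficient and IkB-DN ones.

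No further kappa variable member passed the test in a comparison of lines. Igkv19-93 at 1427855_at was 49.2, 89.9 and 30.5 in wild type lines, 29.7, 36.4 and empty in RAG-2-deficient lines and 6.63, 24.1 and 15 in Artemis-deficient lines (Artemis-deficient against wild type -1.53 ± 0.45, adjusted p = 0.18). The companion sets of 1451965_at, 1427576_at and 1427577_x_at, which name the same 3 genes, had 34.7, 42.4 and 6.16, and 37.1, 37.8 and 15.7, in wild type lines; RAG-2-deficient line 1 reached 19.1 and 19.8. The 13 kappa variable members not tested in lines had signals of 0.0141 to 37.6 with a median of 3.86, and 49 of their 208 cells were empty.

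Lambda transcripts varied widely between lines of the same group. The probe set for Iglc1 and Iglv1 (1424931_s_at) gave 74.5, 628 and 28.6 in wild type lines, 1531, 35.9 and 23.4 in RAG-2-deficient lines and 89.1, 38.6 and 234 in Artemis-deficient lines. Iglv1 at 1427292_at gave 29.2, 286 and 5.15, then 1362, 26.1 and 30.5, then 94, 9.16 and 215 in the same order. At both sets wild type line 2 and RAG-2-deficient line 1 were the highest lines of their groups. In the Artemis- and ATM-deficient lines 1427292_at was at 75 and 108 in line 1 and 11.2 and 8.02 in line 2, and in the IkB-DN samples at 4.41, 1.45 and 4.88, below all other lines. The change from RAG-2-deficient lines to IkB-DN samples, -3.63 ± 1.52, did not pass (adjusted p = 0.152).

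The Iglv1 probe sets differed in which lines they marked. Iglv1 at 1430523_s_at was at 295, 1808 and 50.1 in the wild type lines and at 1.63, 1.86 and 4.76 in the RAG-2-deficient lines. RAG-2-deficient line 1, with 1362 at the other Iglv1 probe set, was at 1.63 here. On the other arrays it was at most 13.4 or empty. The change from RAG-2-deficient to wild type lines missed the threshold (adjusted p = 0.0788), with an SD of 2.51 on the log2 scale among wild type lines. Its size is set by the pseudocount, since the RAG-2-deficient signals lie under it, and among lines only the wild type ones reached the median here, so that the set was tested through the group where it is high. It was called without wild type line 3 (adjusted p = 0.011) or line 2 (adjusted p = 0.048). The fourth set, 1447918_x_at, gave 295, 1952 and 43.6 in wild type, 274, 26.5 and 29.8 in RAG-2-deficient and 22.5, 98.7 and 488 in Artemis-deficient lines, and was empty on 4 of the 5 arrays of Artemis- and ATM-deficient line 2 and the IkB-DN samples. No lambda member was called in any comparison.

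The 2 lines with the highest lambda signal at 1424931_s_at also had the highest signal for Jchain, the chain that joins secreted antibodies into polymers. Jchain was at 1801 in wild type line 2 and 2377 in RAG-2-deficient line 1, and between 9.73 and 47.1 in every other line. Xbp1, a transcription factor of antibody-secreting cells, was at 2062 and 2787 in these 2 lines and 395 to 966 in the others of the 5 groups. Prdm1, the plasma cell regulator Blimp-1, was at 720 and 666, but Artemis- and ATM-deficient line 1 had 619 and 666. RAG-2-deficient line 1 also held the highest signals among lines for the Igha sets 1421653_a_at, 1425763_x_at and 1429381_x_at (52.1, 55.6 and 50.6) and for Ighg3 at 1427503_at (52.3). The plasma cell markers Sdc1 and Derl3 did not follow in wild type line 2. Sdc1, a plasma cell surface proteoglycan, was at 37.1 there against 206 and 140 in wild type lines 1 and 3, and at 1311 in RAG-2-deficient line 1. Derl3 was at 13.1 in wild type line 2 against 30.1 and 22 in lines 1 and 3. Mzb1 was 3732, 5774 and 5042 in wild type lines 1 to 3, highest in line 2, and between 3732 and 5989 on all arrays of lines. The 2 lines were noticed for their lambda values, so this is a description, and the part of secretory cells in the lambda values was not tested.

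**Figure D3:**
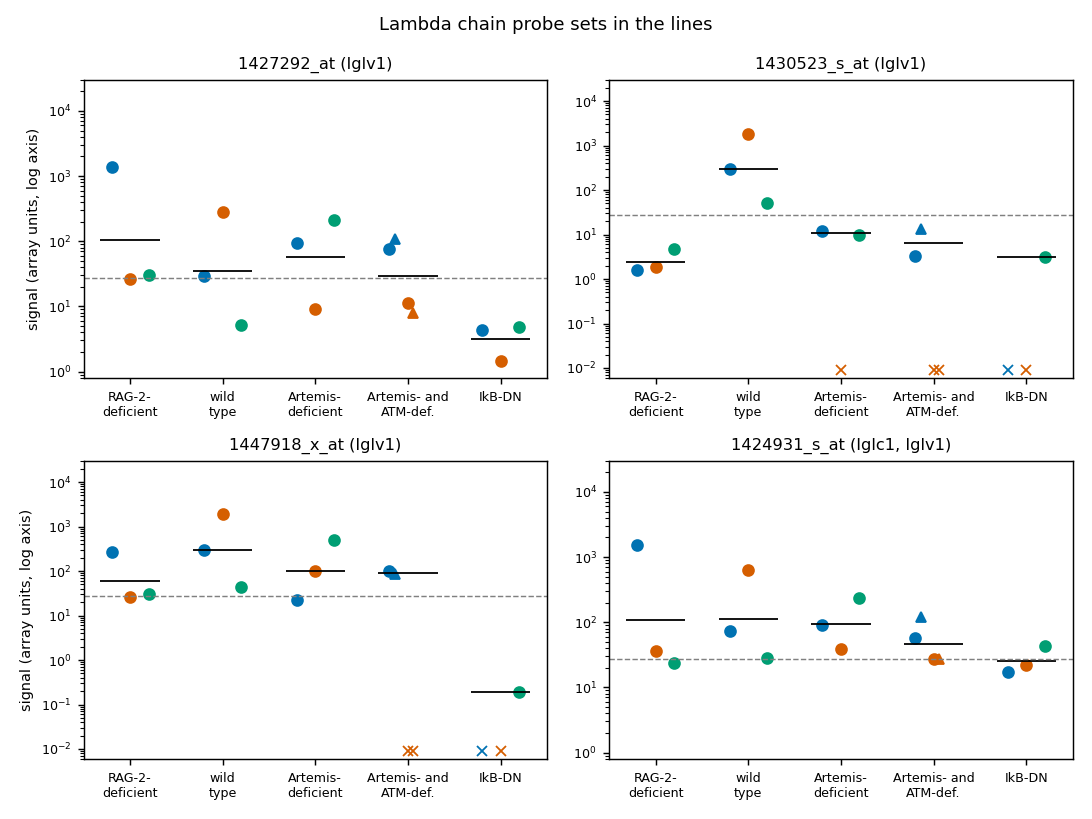
Signal (log axis, array units) of 3 Iglv1 probe sets and of the set naming Iglc1 and Iglv1 in the 5 groups of lines, with points per array, geometric means (black), the mean array median (dashed) and crosses at the bottom for empty cells. Wild type line 2 (orange) is the highest of its group in each panel, and RAG-2-deficient line 1 (blue) of its group in each but 1430523_s_at, where it is at 1.63.

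Ighm is the mu heavy chain constant gene and first isotype a B cell makes. At its 2 probe sets of highest signal it was lowest in IkB-DN samples and Artemis- and ATM-deficient line 2. At 1427329_a_at it was 8121, 8564 and 8611 in RAG-2-deficient lines, 5462, 7428 and 7938 in wild type lines and 6859, 7770 and 5262 in Artemis-deficient lines. Artemis- and ATM-deficient line 1 gave 7934 and 8297 and line 2 gave 4163 and 4216. The IkB-DN samples gave 3772, 3837 and 4324. Line 2 again stood with the IkB-DN samples. The RAG-2-deficient lines were tight and above the wild type and Artemis-deficient lines at this set, but neither difference was called. The 95% intervals against RAG-2-deficient lines ran from -0.768 to 0.172 for wild type and from -0.835 to 0.106 for Artemis-deficient lines. At 1427351_s_at the order was another, again with no call. Wild type lines gave 4445, 4513 and 5290 there, above RAG-2-deficient lines at 4233, 3745 and 4094. Artemis-deficient lines gave 3813, 4658 and 3132.

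The fall from RAG-2-deficient lines to IkB-DN samples was -1.08 ± 0.22 at 1427329_a_at (adjusted p = 0.00975) and -0.86 ± 0.19 at 1427351_s_at (adjusted p = 0.0151), where signals went from 4233, 3745 and 4094 to 2209, 2290 and 2143. The first was called in all 6 fits that left out a sample and the second in 2 of 6. Against Artemis-deficient lines the differences of 0.72 ± 0.22 (adjusted p = 0.104) and 0.78 ± 0.19 (adjusted p = 0.0539) missed the threshold, though the groups did not overlap. The Ighm set 1427870_x_at did not follow: it was 102 to 148 in RAG-2-deficient lines and 118 to 135 in IkB-DN samples (0.09 ± 0.16). Its range over all 16 arrays of lines was 95.5 to 148.

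The other heavy constant sets were low in the lines. Ighm at 1452535_at was 17.3, 46.6 and 30.4 in wild type lines and 6.71 to 24.7 elsewhere, with no call. Ighg3 at 1427503_at was 52.3, 20 and 19.7 in RAG-2-deficient lines and 10.8 to 29.3 elsewhere, also with no call. The 13 sets not tested had a median of 6.39 and a highest value of 55.6, the Igha value in RAG-2-deficient line 1, and 74 of their 208 cells were empty. Among them, Ighm sets 1425247_a_at, 1425324_x_at, 1425385_a_at, 1426196_at, 1427756_x_at, 1427869_at and 1451949_at reached at most 23.8, 5.19, 16.3, 9.23, 10.9, 2.51 and 22.4. The Ighg3 sets 1426198_at, 1426199_x_at and 1447998_at reached at most 2.22, 2.98 and 21.1. At the Ighm set 1425385_a_at the IkB-DN samples gave 10.4, 16.3 and 12.4, above all 11 other lines with technical arrays averaged. With no filter they lay above all other lines at 2 of 36 members and below at 3, against 3.55% and 3.25% of all probe sets.

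Ighv14-2 (1455530_at), the only heavy variable gene well above the median, ranged most among wild type lines. They gave 153, 520 and 1150, the lowest and the highest of all lines, the latter from line 3. The other groups were narrower, at 603, 693 and 909 in RAG-2-deficient lines, 485, 620 and 569 in Artemis-deficient lines, 411, 527, 324 and 309 on the Artemis- and ATM-deficient arrays and 277, 291 and 260 in IkB-DN samples. The IkB-DN change from RAG-2-deficient lines was -1.37 ± 0.51 and missed the threshold (adjusted p = 0.108), although the groups did not overlap. The other 4 heavy variable members had signals of 0.15 to 27.2 in the lines. At 1427851_x_at, which names Ighv1-72 and Ighm, the IkB-DN samples were highest at 23.5, 27.2 and 27 against 0.305 to 14.2 elsewhere. It was not tested because fewer than 2 samples reached the median of their array, and in a fit with no filter its difference from RAG-2-deficient lines was called (1.68 ± 0.33, adjusted p = 0.0123, with the 3 samples counted as separate).

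**Figure D4:**
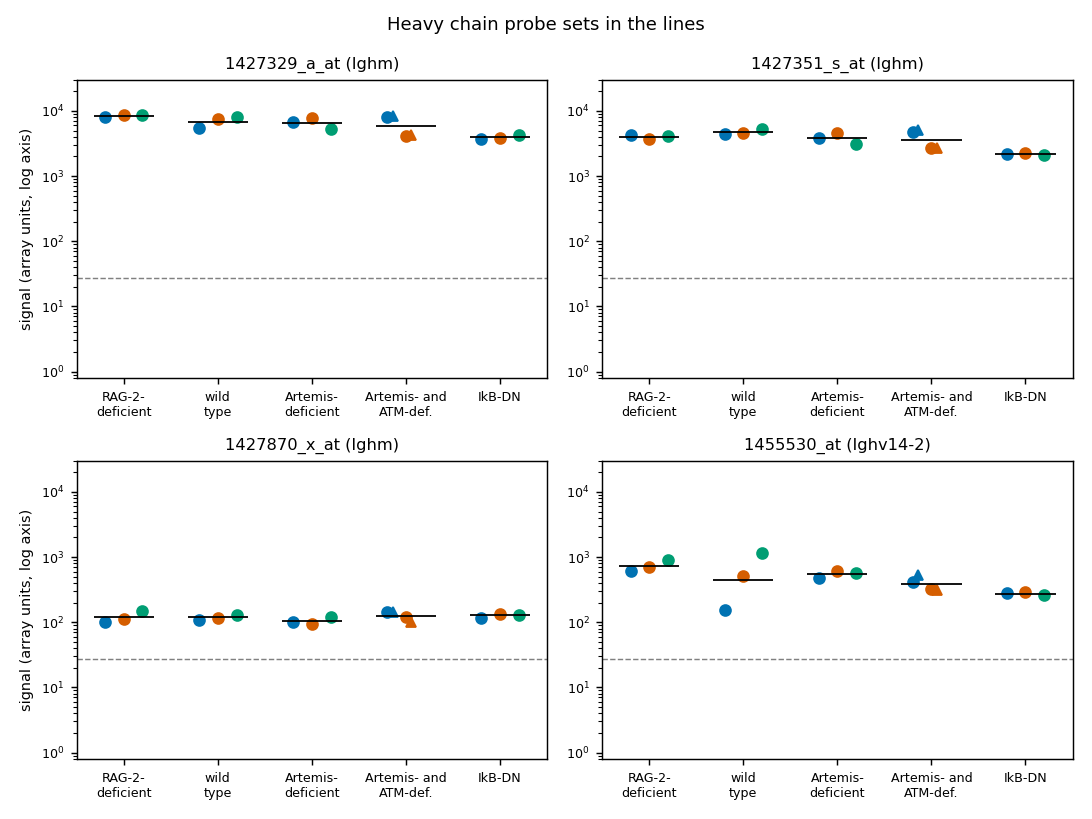
Signal (log axis, array units) of 3 Ighm probe sets and of Ighv14-2 in the 5 groups of lines, with points per array, geometric means (black) and the mean array median (dashed). At 1427329_a_at and 1427351_s_at the IkB-DN samples and both arrays of Artemis- and ATM-deficient line 2 are the lowest, while 1427870_x_at stays between 95.5 and 148 on all arrays.

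Genes that work with the immunoglobulin loci were read from 4 lists. Against RAG-2-deficient lines, where 9.97% of all probe sets were called, IkB-DN samples had 1 call among 9 pre-B receptor and signalling genes tested: Igll1, a part of the surrogate light chain that pairs with mu, rose by 2.02 ± 0.48. Of 10 recombination genes, Prkdc, the end-joining kinase DNA-PKcs, rose by 0.77 ± 0.18. Of 27 regulators of the loci, Id3, an inhibitor of E proteins, rose by 2.04 ± 0.50, while Irf4, a factor that binds kappa and lambda enhancers, fell by 0.90 ± 0.26. Foxo1, a factor for Rag transcription, fell by 0.48 ± 0.12 and Ezh2, a histone methyltransferase, fell by 0.81 ± 0.14. Of 4 switching and secretion genes, Prdm1 fell by 4.17 ± 0.83. With the IkB-DN samples averaged to 1, none of these 7 was called (adjusted p = 0.192 to 0.437). Against Artemis-deficient lines, where 2.06% of all probe sets were called, Ezh2 was the sole call of the lists. It was 0.61 ± 0.14 higher than in IkB-DN samples, a call that also counts the 3 samples as separate. In neither comparison do so few calls set a list apart from all probe sets. No gene of the lists was called in the other 5 comparisons of lines, with 0 to 5 genes a list at an unadjusted p below 0.05. In Artemis- and ATM-deficient line 2, the low kappa line, Igll1 was 3491 and 3780 and Id3 371 and 359, against 2040 and 2359, and 86.9 and 97.9, in line 1. Rag1 was 734 and 346 in line 2 and 1434 and 2255 in line 1. These values of single lines were picked after they were seen.

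In the marrow, all 4 samples carry an IgH transgene, and the probe sets do not tell its transcripts from those of the mouse's own heavy chain locus. No source used here names the transgene's variable gene. Ighm overlapped between the groups, where 1427329_a_at was 17504 and 14403 in Artemis-deficient samples and 12975 and 18349 in RAG-1-deficient samples (0.04 ± 0.21, adjusted p = 0.946, 95% interval -0.46 to 0.54). Ighv14-2 was at 405 and 265 in Artemis-deficient and 716 and 742 in RAG-1-deficient samples. It fell by 1.13 ± 0.23 on the log2 scale (adjusted p = 0.0494). This was the only call among 14 members tested, where 0.791% of all probe sets were called lower and 2.68% in either direction. The median change of the 14 was -0.54, beside -0.01 over all probe sets.

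Kappa and some heavy constant signals were lower in Artemis-deficient marrow without passing the test. Igkc at 1452417_x_at was 4422 and 3650 against 6455 and 7147 (-0.76 ± 0.17, adjusted p = 0.0647), and at 1427660_x_at 5912 and 5554 against 7707 and 9143 (-0.55 ± 0.16, adjusted p = 0.141). At 1427455_x_at it was 4903 and 3218 against 4918 and 6662. Ighg3 at 1426199_x_at was 216 and 99.8 against 630 and 350 (-1.60 ± 0.39, adjusted p = 0.0813), while in the lines the same set was empty or at most 2.98. Igkv8-30 overlapped at 2884 and 1544 against 2433 and 3824 (-0.53 ± 0.32, 95% interval -1.28 to 0.22). The Ighm set 1425247_a_at was 12.9 and 34.2 against 58.3 and 76.8 (-1.24 ± 0.40, adjusted p = 0.164). The groups did not overlap in these but for Igkv8-30. With no filter, both Artemis-deficient samples lay below both RAG-1-deficient ones at 9 of 33 members and above at 1, against 23.0% and 21.4% of all probe sets. The count below is near its background.

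Lambda in the marrow differed between samples of a group. The set for Iglc1 and Iglv1 gave 825 and 541 in Artemis-deficient and 492 and 2041 in RAG-1-deficient samples. Iglv1 gave 680 and 428, and 397 and 1578, at 1427292_at, and 92.9 and 134, and 18.5 and 358, at 1447918_x_at. At 1430523_s_at it gave 58.6 and 37.5, and 47.3 and 73.1. RAG-1-deficient sample 2 was the highest at all 4 sets and sample 1 the lowest or within the Artemis-deficient range. Among the members not tested in marrow, 20 kappa variable sets had signals of 0.217 to 28.1 and 13 heavy constant sets 0.703 to 46.6. Igkv6-20 was empty in 2 samples and at 2.75 and 14.3 in the others.

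**Figure D5:**
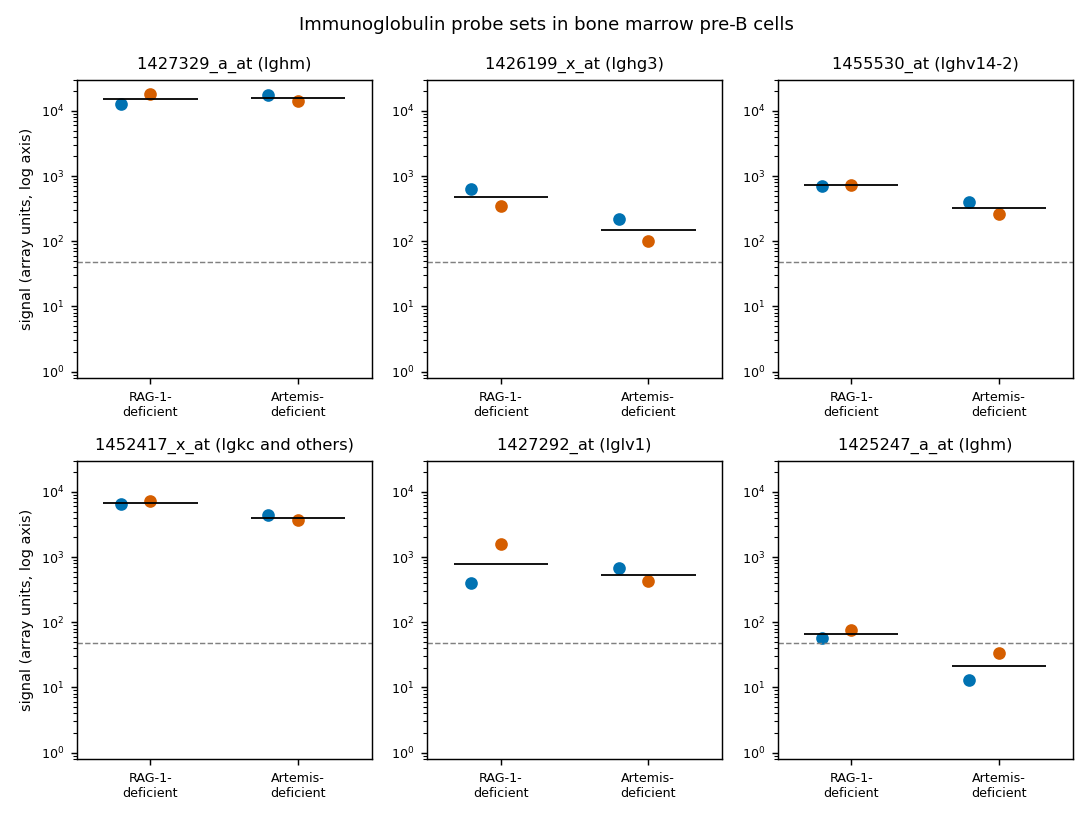
Signal (log axis, array units) of 6 members in the bone marrow samples, 2 RAG-1-deficient and 2 Artemis-deficient, with points per array, geometric means (black) and the mean array median (dashed). Ighm at 1427329_a_at overlaps between groups, and Igkc, Ighg3 and Ighv14-2 are lower in both Artemis-deficient samples.

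The marrow groups also differed in markers of cell type, and lower Igkc signal from fewer pre-B cells cannot be told apart from less RNA per cell in such bulk samples. The 7 pre-B markers were all above the median in both groups, with summed signals of 8466 to 12541 in Artemis-deficient and 22218 to 25902 in RAG-1-deficient samples. Myeloid markers were above the median in 7 of 7 in both groups, summing to 45627 to 52045 and 27496 to 39494. Dendritic markers were above it in 4 of 5 in both, summing to 6065 to 8309 and 1147 to 2156, with Zbtb46 below. T and NK markers were above it in 5 and 4 of 7, summing to 3178 to 3435 and 1304 to 1722. Plasma cell markers were above it in 5 of 6 in both, summing to 6855 to 7720 and 9096 to 10276. Derl3 was at 47.7 and 50.9 against 801 and 589, and Sdc1, Prdm1 and Mzb1 were also lower in Artemis-deficient samples. Jchain was higher there, at 49 and 43.8 against 7.73 and 22.5, and Xbp1 overlapped at 3116 and 4582 against 4159 and 3252. Erythroid markers were above the median in 3 of 4 in both, summing to 665 to 1048 and 1419 to 1449. Mature B cell markers were above it in 4 and 3 of 6, with overlapping sums of 1181 to 1238 and 1069 to 1676. The part of all these in the immunoglobulin values was not tested. Vpreb1, the other part of the surrogate light chain, fell by 1.33 ± 0.23 (1 of 9 receptor genes, beside 2.68% of all probe sets called). Rag1 fell by 2.00 ± 0.22, Xrcc6, the Ku70 end-binding protein, fell by 1.21 ± 0.19 and Lig4, the end-joining ligase, fell by 1.13 ± 0.16 (3 of 9 recombination genes). Irf8, a factor of B, dendritic and myeloid cells, rose by 1.41 ± 0.19 (1 of 28 regulators).

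The call on Ighv14-2 was lost without either RAG-1-deficient sample. Without Artemis-deficient sample 1 there were 3 calls (Ighv14-2, Ighg3 at 1426199_x_at and Igkc at 1452417_x_at) and without sample 2 there were 2 (Ighv14-2 and Ighm at 1425247_a_at). Whether Artemis against RAG deficiency differed between lines and marrow was tested over 12 members measured in both. None was called and none had an unadjusted p below 0.05, where 0.461% of all probe sets were called. The differences ran from -0.41 to 1.23, and that for 1452417_x_at was 0.75 ± 0.73, an error too wide to show like or unlike responses.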

How the data were processed

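The deposited values were log10 signals from 16 arrays of lines and 4 of marrow, read with the array maker's operating software per the labels; the base was inferred from the values, and no source used here states the summary method or scaling. The plan had assumed linear or log2 values. Of all cells 14.7% were empty and stayed so. Arrays have no read depth, so their number limits precision. Signals were raised by the 25th percentile of the set (6 in lines, 11 in marrow) and taken to log2. Technical arrays were averaged, leaving 14 line and 4 marrow samples. The filter kept 21917 and 19520 probe sets, and a comparison needed 2 values a group. Groups were compared with limma 3.58.1 in R 4.3.3 (lmFit, eBayes with trend), two-sided, with Benjamini-Hochberg adjustment over all probe sets, in 1 fit for the lines (9 residual degrees of freedom), 1 for marrow (2) and 1 for both. The procedure was tested on simulated data. P-values measure the spread between these samples, which the series calls biological replicates.

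The members and the gene lists were chosen with earlier results of these data known. Members named are the called ones, the constant region sets and the 10 highest in each set; the others named were picked after their values were seen. Gene names come from the array annotation. All 26 symbols are in the RefSeq gene table, used for the order of kappa genes only; no member was found in the table of promoter sequences, so no sequence is shown. Figures were drawn with matplotlib 3.10.9. Alternatives were another pseudocount, no filter, quantile normalization, only the compared groups, 1 technical array, IkB-DN samples averaged and each sample left out.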

Additional observations from a re-analysis of the deposited data

How the results depend on the processing

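Counts of members called are given per comparison, without the share of all probe sets called under each alternative. Wild type against RAG-2-deficient lines (2 called) gave 1 with a pseudocount of 1, 0 with only the compared groups and 0 to 3 with a sample left out. Artemis-deficient against wild type lines (3) gave 5 with no filter, 0 with a pseudocount of 1, 0 with only the compared groups and 0 to 4 with a sample left out. IkB-DN against RAG-2-deficient lines (7) gave 8 with no filter (1 of them higher, 1427851_x_at), 8 with only the compared groups, 0 with the IkB-DN samples averaged and 2 to 7 with a sample left out. Artemis-deficient against IkB-DN lines (1) gave 2 with the median signal as pseudocount, 7 with only the compared groups, 0 with no filter, with the first technical array only or with IkB-DN samples averaged, and 0 to 1 with a sample left out. Artemis-deficient against RAG-2-deficient lines (0) gave 1 with only the compared groups and 0 with any sample left out. Artemis- and ATM-deficient lines (0 in both comparisons) stayed at 0 with a RAG-2-deficient or Artemis-deficient line left out. Leaving out 1 of their own 2 lines leaves a single sample in the group, so no count is given for those fits. The marrow comparison (1) gave 3 with quantile normalization, 0 with a pseudocount of 1 and 0 to 3 with a sample left out. The difference between lines and marrow stayed at 0 under every alternative run. Of 457 alternative values of named members, 370 stayed the same, 67 lost and 20 gained a call, and 0 changed direction. The 370 include levels in wild type lines without line 3, which were judged by their shift against the SD and not by the threshold. The causes of these changes were not tested. No paired analysis was possible because the replicate numbers only name samples and no label ties a number to a shared litter, day or animal. Members under the array median are the least certain, since a fold there depends on the pseudocount.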
